A study of Mus musculus with 4 samples.

Results

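The CCR4-NOT complex was examined through 10 genes chosen by name, Cnot1, Cnot2, Cnot3, Cnot6, Cnot6l, Cnot7, Cnot8, Cnot10, Cnot11 and Tob1, out of 45803 gene symbols in the deposited table. Of these, 9 encode subunits of the complex; Tob1 encodes a protein that binds it and is not a subunit. RNA was sequenced from epidermal keratinocytes of newborn mice at postnatal day 0, in 4 libraries. The cKO mice had the genotype K14Cre,Mettl14F/F, in which both copies of Mettl14 are floxed, and the control mice K14Cre,Mettl14F/+, with 1 floxed and 1 wild-type copy; both groups carried Cre under the keratin 14 promoter, which is active in basal keratinocytes and their descendants, and neither was treated. Each genotype had 2 libraries, numbered 1 and 2 in the labels. Since no label ties them to different mice, the error behind every p-value may be technical only.

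CCR4-NOT is the main enzyme that shortens the poly(A) tail of cytoplasmic mRNA, the step that usually starts mRNA decay. Cnot1 is the scaffold on which the other subunits sit, and the tail is removed by nucleases of a pair of unrelated families, Cnot6 and Cnot6l in the one and Cnot7 and Cnot8 in the other. RNA-binding proteins bring the complex to chosen mRNAs. Among them is Ythdf2, which binds N6-methyladenosine (m6A) and, in human cells, contacts CNOT1; Mettl14 is part of the methyltransferase that writes this mark.

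Values were taken as FPKM (fragments per kilobase of transcript, scaled to library depth), which are per length, and were summed over the transcripts of a gene. The targeted gene Mettl14 measured 5.89 and 3.79 FPKM in cKO libraries 1 and 2, against 7.00 and 6.40 FPKM in control libraries 1 and 2. Both cKO libraries were below both control libraries, with a log2 difference of -0.42 ± 0.26 (SE) that did not pass limma's test (adjusted p = 0.959), and the labels do not say which part of the gene is deleted. Leaving out cKO replicate 2 gave -0.159, leaving out cKO replicate 1 gave -0.684, and limma-voom gave -0.683. Implied depths were 16885268 and 25724440 reads or fragments in cKO, against 17416909 and 23393110 in control. Of 8 keratinocyte markers, 7 averaged at least 1 FPKM, and Krt1 was listed at 0 in every library. The basal markers Krt14, Krt5, Krt15 and Trp63 were lower in cKO within both numbers. Krt14 measured 1435 and 2195 FPKM in cKO against 2176 and 2550 in control, and Krt5 500.4 and 968 against 897 and 1332. Krt15 measured 331 and 418 FPKM in cKO against 515 and 739 in control, and Trp63 76.3 and 76.8 against 99.6 and 109. Other keratinocyte markers were mixed in direction between the numbers. Dsg3 measured 32.89 and 29.05 FPKM in cKO against 34.83 and 28.85 in control, and Lor 124.62 and 128.24 against 104.53 and 133.51. All 8 leukocyte markers averaged at least 1 FPKM and summed to 235 and 353 FPKM in cKO, against 409 and 490 in control. The 6 melanocyte markers summed to 397 and 417 in cKO against 516 and 445 in control. The 6 fibroblast markers summed to 84.6 and 91.96 FPKM in cKO against 116 and 114 FPKM in control, but did not move together. Dcn measured 33.96 and 40.31 FPKM in cKO against 55.69 and 68.23 in control. Col1a1 was higher in cKO within both numbers (4.27 and 5.94 against 4.06 and 5.7). Col3a1 (31.35 against 25.96) and Pdgfra (2.75 against 1.94) were higher in cKO within number 2 only. Endothelial, muscle and adipocyte lists summed to at most 1.99 FPKM in any library. The part of these cells in the results below was not tested, and in such bulk samples fewer cells of a type and less RNA per cell cannot be told apart.

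All 10 genes were well expressed, each above 12 FPKM in every library. Averaged over the 4 libraries, the order of levels was Cnot2 (51.1 FPKM), Cnot6 (44.4), Cnot7 (32.5), Cnot6l (32.1), Cnot1 (29.3), Tob1 (26.3), Cnot8 (18.5), Cnot10 (18.1), Cnot11 (13.8) and Cnot3 (13.5). Ranges over the libraries overlapped between each gene and the next in this order, except between Cnot10 (15.99 to 19.19) and Cnot11 (12.67 to 15.15). The order is therefore coarse between neighbours, although genes further apart could be separate. Cnot2 (45.28 to 60.02) lay wholly above Cnot1 (25.84 to 32.14), and Cnot1 wholly above Cnot8 (15.97 to 22.67). The order is also one of all annotated RNA of a gene, not of coding RNA. Coding transcripts carried 100% of Cnot1 and Tob1, but 53.5% to 69.3% of Cnot6l and 72.6% to 76.9% of Cnot7. The reads behind a gene, recovered from the values, ran between 390 (Cnot3 in cKO 1) and 6106 (Cnot1 in control 2). The counting error of 390 reads alone is 5.06%. The level is a sum of values per length, so its counting error can be larger than that of the summed reads.

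**Figure D1:**
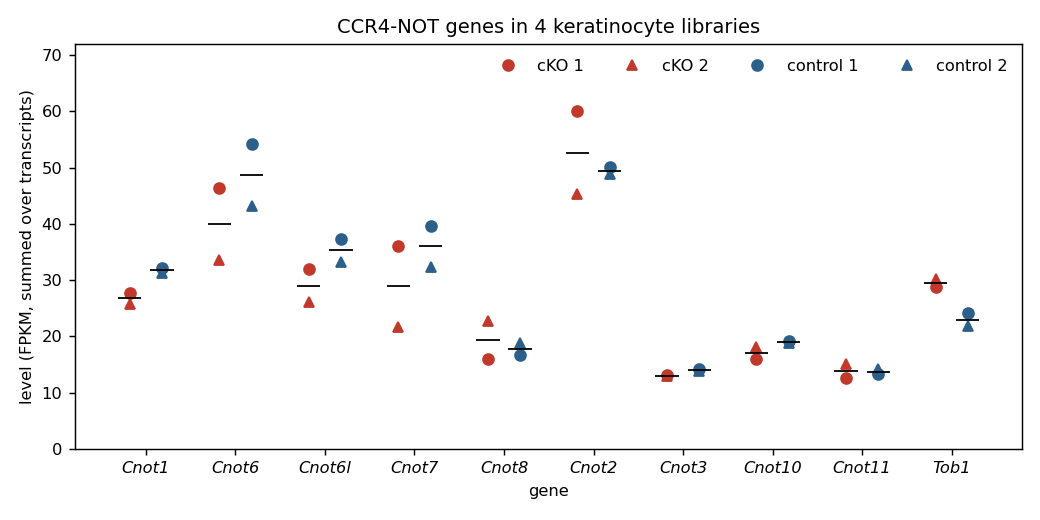
Level of each gene in FPKM (y axis, linear from 0) in the cKO libraries (red) and the control libraries (blue); circles are replicate number 1, triangles number 2, and short lines are means of 2 libraries. The cKO points of Cnot1 (25.8 and 27.7) lie below its control points (31.3 and 32.1), and those of Tob1 (28.8 and 30.3) above its control points (21.9 and 24.1).

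None of the 10 genes passed the test between genotypes. With limma over 13817 genes, 0 of 10 had an adjusted p under 0.05, where 0% of all genes did; at an unadjusted p under 0.05 there were also 0 of 10, where 4.96% of all genes were, and limma-voom on recovered reads called 0 of 10. With the replicate number as a block, limma called 0 of 10, where 6.51% of all genes were called. The log2 differences ran from -0.34 (Cnot7) to 0.35 (Tob1), with a median of -0.12 beside -0.03 over all genes tested. Both cKO libraries lay below both control libraries for 4 genes (Cnot1, Cnot3, Cnot6l and Cnot10), against 16.6% of all genes, and above them for 1 gene (Tob1), against 16.2%. Comparing libraries of the same number, 6 genes were lower in cKO both times, where 37.6% of all genes were, 1 gene was higher both times, where 31.8% were, and 3 were mixed.

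**Figure D2:**
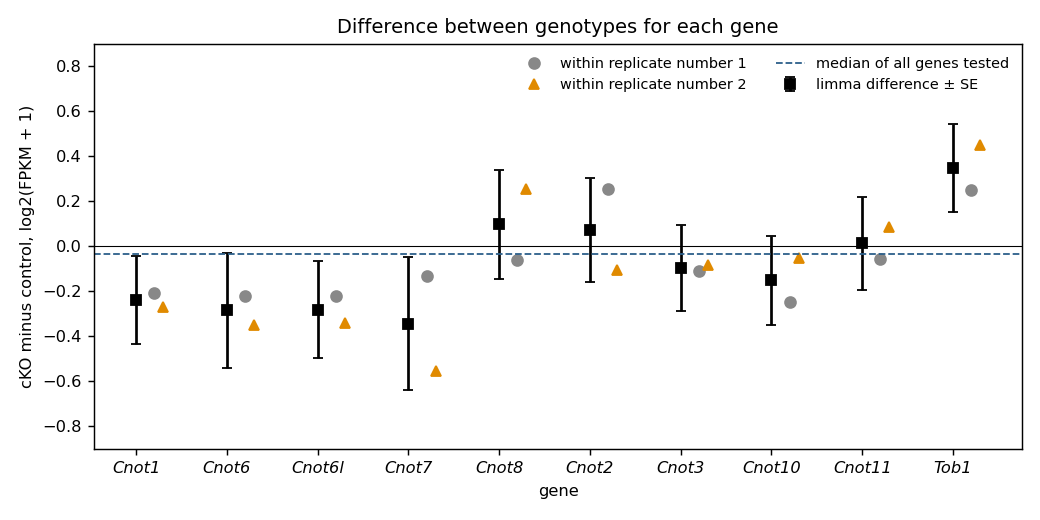
Log2 difference, cKO minus control, on the log2(FPKM + 1) scale (y axis) for each gene; black squares with bars are limma's estimate ± SE over 2 libraries per genotype, grey circles and orange triangles are differences within replicate numbers 1 and 2, and the dashed line is the median of all genes tested (-0.03). Cnot1, Cnot3, Cnot6, Cnot6l, Cnot7 and Cnot10 lie below 0 within both numbers and Tob1 above 0 (0.25 and 0.45).

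The scaffold gene Cnot1 (ENSMUSG00000036550, GRCm38 chromosome 8, 95719451 to 95807464, minus strand) measured 27.7 and 25.8 FPKM in cKO libraries 1 and 2, against 32.1 and 31.3 FPKM in control libraries 1 and 2. The cKO mean was 0.843 of the control mean, and the log2 difference was -0.24 ± 0.19 (SE), with -0.21 within number 1 and -0.27 within number 2 (limma, adjusted p = 0.959). The libraries of a genotype were close together and the genotypes did not overlap, but the difference did not pass the test. Leaving out any single library kept it between -0.286 and -0.19. Of its 2 transcripts, the longer, Cnot1-202 with 49 exons, measured 22.0 and 21.5 FPKM in cKO against 25.9 and 23.6 in control. Cnot1-201, with 48 exons, measured 5.66 and 4.38 FPKM in cKO, against 6.23 and 7.74 FPKM in control. Among the 10 genes, Cnot1 held the most copies in its coding sequence of GGACT, a core form of the sequence that the m6A writer prefers. The last of its 11 copies in the coding sequence, in exon 46 at GRCm38 chr8:95723397-95723401 on the minus strand, is shown in capitals with 11 bases on either side, from the GENCODE M21 transcript.
Cnot1: gctctacgtagGGACTcaggctatcgc

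Cnot6 and Cnot6l, which encode deadenylases of the endonuclease-exonuclease-phosphatase family, were both lower in cKO within both numbers. Cnot6 (chromosome 11, 49671503 to 49712723, minus strand) measured 46.4 and 33.7 FPKM in cKO libraries 1 and 2, against 54.2 and 43.2 in control libraries 1 and 2. Its libraries overlapped between genotypes, because both libraries numbered 2 were low, and the log2 difference was -0.28 ± 0.26 (-0.22 and -0.35 within numbers 1 and 2). Cnot6l (chromosome 5, 96070333 to 96164171, minus strand) measured 31.94 and 26.02 FPKM in cKO against 37.4 and 33.2 in control, with no overlap and a difference of -0.28 ± 0.22 (-0.22 and -0.34). The adjusted p from limma was 0.959 for both. Without a single library the difference lay between -0.511 and -0.058 for Cnot6 and between -0.424 and -0.138 for Cnot6l. A gene annotated inside Cnot6 on the same strand, Gm12191, measured 10.2 and 82.6 FPKM in cKO against 7.44 and 72.2 in control, so it was high in both libraries numbered 2, where Cnot6 was low; its part in the Cnot6 values was not tested.

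Cnot6l made up 40.8% and 43.6% of the pair's summed FPKM in cKO libraries 1 and 2, against 40.8% and 43.5% in control libraries 1 and 2. In both genes these sums include transcripts annotated as not coding. Retained introns alone took 29.9% to 45.1% of the FPKM of Cnot6l. The log2 ratio of Cnot6l to Cnot6 averaged -0.44 ± 0.12 in cKO and -0.45 ± 0.11 in control (SD, n = 2 libraries each), a difference of 0.004 (exact permutation test, two-sided, p = 1, where 2 against 2 allows no p below 0.333). The shares followed the replicate number instead. Their coding sequences, 1650 and 1671 bases long in the most abundant transcripts, were identical at 73.3% of 1650 aligned positions, and the longest run shared exactly by the full transcripts was 20 bases, which bears on how far reads of the pair could be confused. The window below was chosen because Cnot6 holds GGACT there, so it does not describe the pair elsewhere. The capitals mark the last GGACT found in the coding sequence of Cnot6, beside the aligned bases of Cnot6l; both are from GENCODE M21 transcripts on GRCm38, at chr11:49682087-49682113 and chr5:96091632-96091658 on the minus strand.
Cnot6: gtctcgagctcGGACTatgtctgaaca
Cnot6l: gtcacgtgccaaaatcatgtctgagca
Of these 27 positions, 18 were identical, and the motif letters were present in Cnot6 and not in Cnot6l. The coding sequence of Cnot6 held 2 copies and that of Cnot6l 0, while the whole transcripts held 11 and 3.

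Cnot7 and Cnot8 encode the deadenylases of the DEDD family, which take each other's place in the complex, and their differences were of opposite sign. Cnot7 (chromosome 8, 40492540 to 40515847, minus strand) measured 36.1 and 21.7 FPKM in cKO libraries 1 and 2, against 39.6 and 32.4 in control libraries 1 and 2. Its low value was in cKO library 2 and the genotypes overlapped; the log2 difference was -0.34 ± 0.30, with -0.13 and -0.56 within numbers 1 and 2 (limma, adjusted p = 0.959). Without cKO replicate 2 it turned to 0.01. Cnot8 (chromosome 11, 58104153 to 58118594, plus strand) measured 15.97 and 22.67 FPKM in cKO against 16.7 and 18.8 in control. Here cKO library 2 was the highest, the genotypes overlapped, and the difference of 0.10 ± 0.24 (-0.06 and 0.25 within the numbers; limma, adjusted p = 0.972) turned to -0.143 without cKO replicate 2.

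**Figure D3:**
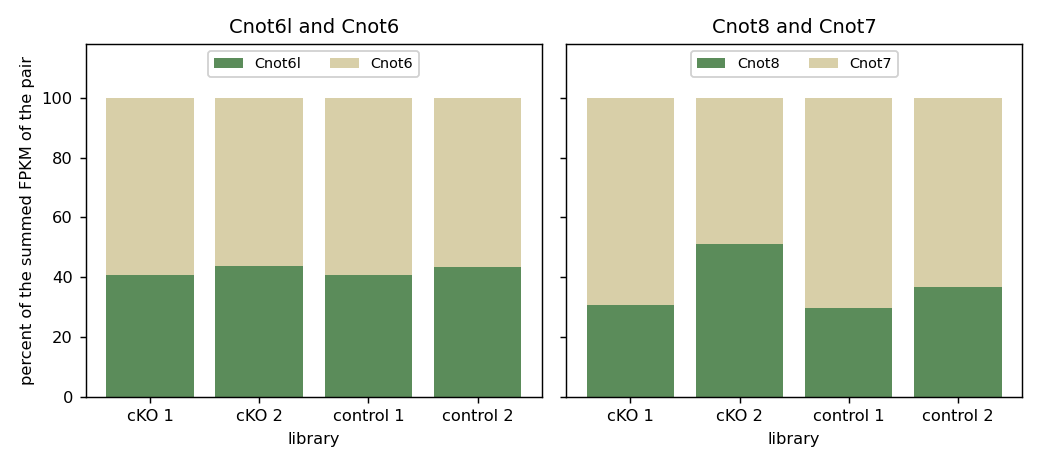
Share of each exchangeable nuclease gene in the summed FPKM of its pair, over all transcripts, coding or not (y axis, percent, from 0), in the 4 libraries, cKO left of control. Cnot6l stays between 40.8% and 43.6%, and Cnot8 reaches 51.1% in cKO library 2 against 29.6% to 36.8% elsewhere.

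Cnot8 made up 30.7% and 51.1% of this pair's summed FPKM in cKO libraries 1 and 2, against 29.6% and 36.8% in control libraries 1 and 2. The log2 ratio of Cnot8 to Cnot7 averaged -0.54 ± 0.84 in cKO and -0.98 ± 0.32 in control (SD, n = 2 libraries each), a difference of 0.44 (exact permutation test, two-sided, p = 0.667) that was 0.07 within number 1 and 0.81 within number 2. It therefore rests on cKO library 2. The pair's sum was 52.1 and 44.4 FPKM in cKO against 56.3 and 51.3 in control, so the sum varied less than the shares. Vps37a, an ESCRT gene annotated over part of Cnot7 on the opposite strand, measured 19.9 and 9.64 FPKM in cKO against 18.6 and 12.1 in control, also lowest in cKO library 2. Whether strand was kept is not given in the sources used here, so reads from where the genes overlap cannot be told apart, and the part of this in the Cnot7 values was not tested. The coding sequences of Cnot7 (855 bases) and Cnot8 (876 bases) were identical at 70.8% of 855 aligned positions, and the longest exact run shared by their transcripts was again 20 bases. The last GGACT in the Cnot7 coding sequence is shown with the aligned bases of Cnot8, at GRCm38 chr8:40500880-40500906 (minus strand) and chr11:58113059-58113085 (plus strand).
Cnot7: atgtatgctcaGGACTctatagagcta
Cnot8: atgtactcccaggattccatagatctg
The windows matched at 20 of 27 positions, with the capitals marking the motif that Cnot7 has and Cnot8 lacks at this place. The place was chosen by the copy in Cnot7, and the coding sequence of Cnot8 held 1 copy elsewhere.

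Cnot2 and Cnot3, whose NOT-box proteins form the module that many RNA-binding proteins contact, showed no shared direction. Cnot2 (chromosome 10, 116485161 to 116581511, minus strand) measured 60.0 and 45.3 FPKM in cKO libraries 1 and 2, against 50.1 and 48.9 in control libraries 1 and 2. The cKO libraries lay on either side of the control libraries, with a log2 difference of 0.07 ± 0.23 (0.26 and -0.11 within the numbers; limma, adjusted p = 0.979) that turned to -0.125 without cKO replicate 1. Cnot3 (chromosome 7, 3645268 to 3661109, plus strand) measured 13.05 and 13 FPKM in cKO against 14.2 and 13.8 in control. The genotypes did not overlap, but the difference was small, -0.10 ± 0.19 (-0.11 and -0.08; limma, adjusted p = 0.967). Leng1, a gene that overlaps Cnot3 on the opposite strand, measured 5.42 and 6.86 FPKM in cKO against 4.50 and 5.46 in control.

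Cnot10 and Cnot11 encode the subunits that bind each other at the N-terminal end of the scaffold. Cnot10 (chromosome 9, 114585878 to 114640184, minus strand) measured 15.99 and 18.19 FPKM in cKO libraries 1 and 2, against 19.2 and 18.9 in control libraries 1 and 2. All of it came from 1 listed transcript, and the cKO values were lower by -0.15 ± 0.20 on the log2 scale, more within number 1 (-0.25) than within number 2 (-0.05; limma, adjusted p = 0.959). Cnot11 (chromosome 1, 39534992 to 39546889, plus strand) measured 12.7 and 15.2 FPKM in cKO against 13.2 and 14.2 in control. The cKO libraries enclosed the control libraries, and the difference was 0.01 ± 0.21 (-0.06 and 0.09; limma, adjusted p = 0.995). It was -0.106 without cKO replicate 2 and -0.034 without control replicate 1, so its sign depended on the libraries used.

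Tob1 encodes an antiproliferative protein that links CCR4-NOT, through Cnot7 or Cnot8, to the poly(A)-binding protein, and was the member with the highest difference. Tob1 (ENSMUSG00000037573, chromosome 11, 94211454 to 94215495, plus strand) measured 28.8 and 30.3 FPKM in cKO libraries 1 and 2, against 24.1 and 21.9 FPKM in control libraries 1 and 2. Both cKO libraries were above both control libraries, and the cKO mean was 1.29 times the control mean. The log2 difference was 0.35 ± 0.20, with 0.25 and 0.45 within the numbers, and did not pass limma's test (adjusted p = 0.959). It lay between 0.285 and 0.415 whichever library was left out. The gene is listed with 1 transcript of 2 exons and 2288 bases. Its coding sequence held 0 copies of GGACT, although 72.5% of main transcripts with a coding sequence within 20% of its length held at least 1. Its whole transcript held 1 copy. The coding sequences of Cnot3 and Cnot6l, both lower in cKO, also held 0 copies, where the same share was 90.7% and 83.9%.

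Differences over all genes went with exon number. Among protein-coding genes tested, the median log2 difference was 0.14 for the 1074 genes whose main transcript has 1 or 2 exons, 0.03 for the 6349 with 3 to 10, -0.07 for the 3330 with 11 to 20 and -0.15 for the 1465 with 21 or more. Tob1 belongs to the first of these classes; Cnot7, Cnot8 and Cnot11, with 7 exons each in the main transcript, to the next; Cnot6 and Cnot6l (12 exons each), Cnot2 (16), Cnot3 (18) and Cnot10 (20) to the class after it. Cnot1, with 49, belongs to the last. All of the 10 except Cnot7 and Cnot2 had the sign of their class median, although the sign of Cnot11 turned with the scaling. The part of this trend in the values of the 10 genes was not tested. The count of GGACT did not follow the same order: the coding sequence of Cnot1 held 11 copies, that of Cnot11, Cnot10, Cnot6 and Cnot7 2 each, of Cnot8 and Cnot2 1 each, and of Cnot3, Cnot6l and Tob1 0. Per kilobase of coding sequence, Cnot7 had the most (2.34), followed by Cnot1 (1.54), against a median of 1.05 over 11867 main transcripts, and 100% of main transcripts with a coding sequence within 20% of the length of Cnot1 held at least 1 copy. Only the coding strand was searched, and a match is a description of the letters, not a methylated site.

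Cnot2, Cnot6, Cnot7, Cnot8 and Cnot11 had larger differences between replicate numbers than between genotypes. On the log2 scale, libraries numbered 2 minus those numbered 1 gave -0.49 for Cnot7, -0.39 for Cnot6, -0.22 for Cnot2, 0.32 for Cnot8 and 0.17 for Cnot11. For Cnot6l the difference by number, -0.23, was smaller than that by genotype. For Cnot1 (-0.07), Cnot3 (-0.02) and Tob1 (-0.03) the number made little difference. The labels give the number no meaning beyond a replicate. The keratinocyte differentiation gene Krt10 also split by number, with 12142 and 6217 FPKM in cKO libraries 1 and 2, against 15342 and 5382 in control libraries 1 and 2. Its part in these values was not tested.

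The transcript rows show that part of the level of several genes came from RNA annotated as not coding for the full protein. The 10 genes had 61 transcripts in the table, of which 14 were listed at 0 in every library and 38 were tested, 21 of them protein coding. Of the 38, 0 passed limma's test over 27201 transcripts (0% of all transcripts), 0 had an unadjusted p under 0.05 (4.19% of all), and limma-voom over transcripts called 0 of 26918. Their median log2 difference was -0.09, beside -0.06 over all transcripts tested.

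Retained introns were most prominent in Cnot6l, where transcripts of this class took 44.7% and 30.1% of the gene's FPKM in cKO libraries 1 and 2, against 45.1% and 29.9% in control libraries 1 and 2. The share followed the replicate number and was nearly equal between genotypes within it. The main retained-intron transcript, Cnot6l-208, measured 9.53 and 5.79 FPKM in cKO against 11.1 and 6.32 in control. The main coding transcript, Cnot6l-210, measured 17.0 and 12.5 FPKM in cKO against 18.5 and 14.8 in control. A second coding transcript, Cnot6l-202, was listed at 0 and 4.33 in cKO against 0.73 and 7.45 in control, so it was seen mainly in libraries numbered 2. Over the whole table, retained introns took 4.01% and 2.28% of summed FPKM in cKO libraries 1 and 2, against 4.66% and 2.83% in control libraries 1 and 2, so the same split by number appeared there.

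**Figure D4:**
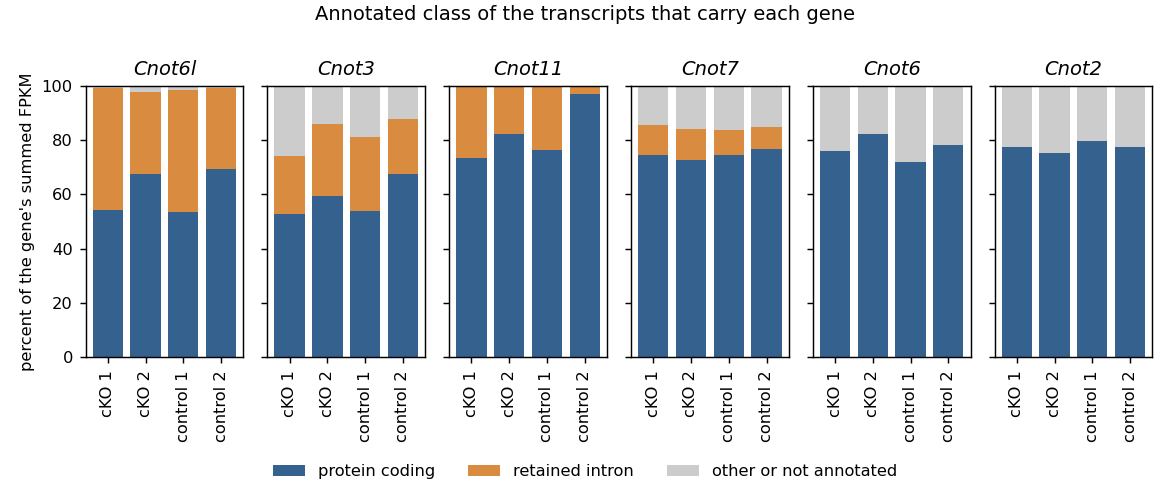
Share of each gene's summed FPKM (y axis, percent) carried by transcripts annotated as protein coding (blue), retained intron (orange) or any other class or none (grey), in the 4 libraries, cKO left of control, for the 6 genes with more than coding transcripts. For number 1, retained introns of Cnot6l take 44.7% in cKO and 45.1% in control, and for number 2 30.1% in cKO and 29.9% in control.

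Cnot11 differed from Cnot6l in this respect. Retained introns took 26.5% and 17.8% of its FPKM in cKO libraries 1 and 2, against 23.5% and 3.03% in control libraries 1 and 2, because Cnot11-202 measured 3.36 and 2.70 FPKM in cKO against 3.11 and 0.43 in control. Control library 2 alone was low, and the log2 difference of this transcript, 0.73 ± 0.54, did not pass (limma, adjusted p = 1). The main coding transcript, Cnot11-201, went the other way in value, with 8.13 and 10.1 FPKM in cKO against 8.98 and 12.6 in control (-0.21 ± 0.28). In Cnot3, coding transcripts carried 52.6% and 59.6% of the level in cKO against 54.1% and 67.5% in control. Its main transcript, Cnot3-201, measured 5.55 and 6.38 FPKM in cKO against 6.41 and 8.45 in control, without overlap. In Cnot7, the coding share was 74.5% and 72.6% in cKO against 74.7% and 76.9% in control. The main transcript, Cnot7-201, measured 21.2 and 12.8 FPKM in cKO against 20.6 and 21.3 in control, so it held most of the drop of the gene in cKO library 2 against control library 2. In Cnot2, the most abundant transcript was Cnot2-203, at 32.8 and 21.1 FPKM in cKO against 27.2 and 26.4 in control. In Cnot6 it was Cnot6-203, at 27.5 and 19.0 FPKM in cKO, against 31.0 and 24.0 FPKM in control.

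Among the other genes of mRNA deadenylation and decay, none passed limma's test with genotype alone. With the replicate number as a block, limma called 6.51% of all genes, among them Ythdf2 (adjusted p = 0.00648) and Lsm7 (adjusted p = 0.0319). The labels do not pair the libraries by number, and that fit has fewer residual degrees of freedom. Of 51 genes listed, 50 were in the table and 46 were tested; 0 passed limma's test, and 2 had an unadjusted p under 0.05, Ythdf2 and Ago4, a share of 4.35% where 4.96% of all genes were. The median log2 difference of the 46 was -0.11, with 23 lower within both numbers (50.0%, where 37.6% of all genes were), 9 higher within both (19.6%, where 31.8% were) and 14 mixed. Both cKO libraries were below both control libraries for 8 (17.4%, where 16.6% of all genes were) and above them for 3 (6.52%, where 16.2% were), namely Ythdf2, Tnrc6c and Dcp1b. Ythdf2, the m6A reader, measured 57.95 and 73.8 FPKM in cKO libraries 1 and 2, against 33.6 and 37.1 FPKM in control libraries 1 and 2. Its log2 difference of 0.87 ± 0.23 was the highest of the list (limma, unadjusted p = 0.0091, adjusted p = 0.959). Any 3 of the 4 libraries gave 0.698 to 1.042. Ago4, an Argonaute protein, had the lowest difference, -0.58 ± 0.23, with 2.79 and 2.39 FPKM in cKO against 4.06 and 4.71 in control.

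**Figure D5:**
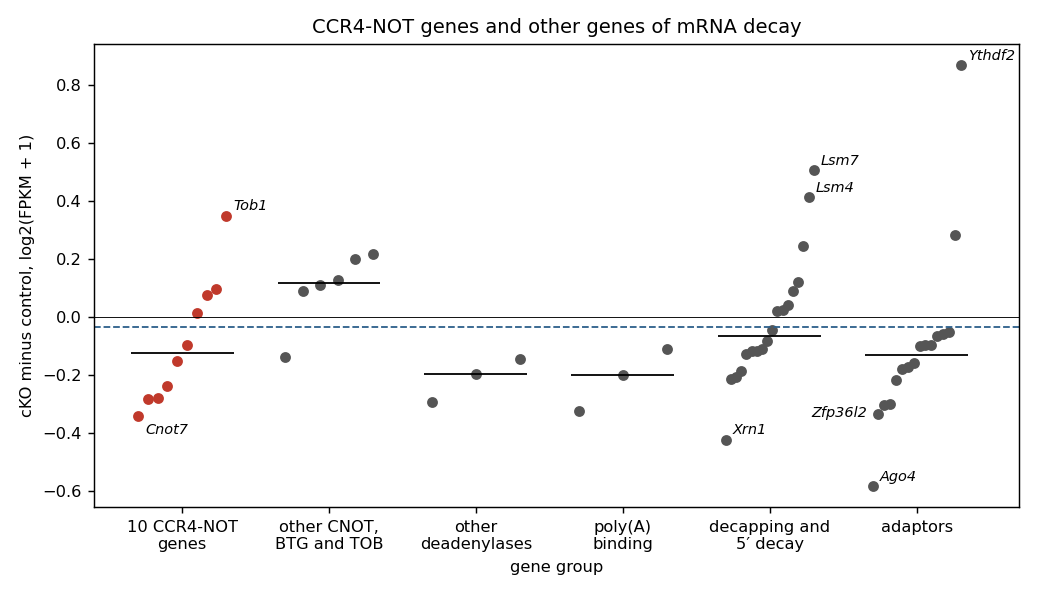
Log2 difference, cKO minus control, on the log2(FPKM + 1) scale (y axis) for the 10 CCR4-NOT genes (red) and 46 other tested genes of mRNA decay in 5 groups (grey); each point is a gene, short lines are group medians and the dashed line is the median of all genes tested. Ythdf2 (0.87), Lsm7 (0.51) and Lsm4 (0.41) are highest, and Ago4 (-0.58) and Xrn1 (-0.42) lowest.

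The remaining subunits and relatives of Tob1 were mostly higher in mean value, but the genotypes overlapped for all 6 tested. Over all genes, 16.2% were higher and 16.6% lower without overlap. Of the 6, 3 were higher within both numbers, where 31.8% of all genes were, and 0 were lower, where 37.6% were. Cnot4, an E3 ligase that associates loosely with the complex, measured 16.7 and 10.4 FPKM in cKO against 15.8 and 13.6 in control (-0.14 ± 0.27). Cnot9, listed under its older symbol Rqcd1, measured 20 and 28.11 against 20.2 and 23.7 (0.11 ± 0.24). Of the BTG and TOB family, which shares Tob1's binding to the nucleases, Tob2 measured 11.9 and 15.2 FPKM in cKO against 10.7 and 12.6 in control (0.20 ± 0.22). Btg1 measured 60.4 and 65.0 against 47.4 and 61.0 (0.22 ± 0.23), Btg2 22.1 and 28.0 against 20.5 and 26.3 (0.09 ± 0.24), and Btg3 27.04 and 19.34 against 20.6 and 21.2 (0.13 ± 0.23). Tob1, Tob2, Btg1 and Btg2 were higher in cKO within both numbers, Btg3 was mixed and Btg4 was listed at 0 throughout. Btg1 lay at 0.038 without control replicate 1 and 0.395 without control replicate 2, and Tob2 reached 0.037 when cKO replicate 2 was left out and 0.364 when cKO replicate 1 was. Without cKO replicate 2 the difference of Cnot4 turned to 0.177, of Rqcd1 to -0.126 and of Btg2 to -0.073; Btg2 was -0.079 without control replicate 1 and Btg3 -0.104 without cKO replicate 1, and Rqcd1 without control replicate 1 was at 0 to 3 decimals.

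The 3 other deadenylases lay below control within both numbers, where 37.6% of all genes did. Only Pan2 did so without overlap of the genotypes, where 16.6% of all genes did. Pan2 and Pan3, the complex that starts tail shortening, measured 13.1 and 12.2 FPKM in cKO against 13.7 and 14.5 in control (-0.14 ± 0.20), and 60.3 and 41.4 against 69.1 and 54.7 (-0.29 ± 0.27). Parn, a poly(A)-specific ribonuclease, measured 7.26 and 9.53 against 8.85 and 10.6 (-0.20 ± 0.23). With a library left out, Pan3 ran to -0.559 (cKO replicate 1 out) and -0.028 (cKO replicate 2 out), and Parn to -0.372 (cKO replicate 2 out) and -0.022 (cKO replicate 1 out). Decapping and 5′ decay genes had a median of -0.07 over 18 genes and were split. Lsm7 and Lsm4, small subunits of the LSM ring, measured 57.0 and 94.9 FPKM in cKO against 40.3 and 65.7 in control (0.51 ± 0.36), and 30.6 and 49.8 against 24.3 and 34.7 (0.41 ± 0.31). Leaving out cKO replicate 2 or control replicate 1 brought Lsm7 to 0.144 or 0.161 and Lsm4 to 0.072 or 0.167, and leaving out cKO replicate 1 or control replicate 2 brought them to 0.869 or 0.852 and to 0.757 or 0.662. Xrn1, the 5′ to 3′ exonuclease, measured 21.1 and 10.96 against 25.7 and 16.8 (-0.42 ± 0.36), and turned to 0.018 without cKO replicate 2. Adaptors had a median of -0.13 over 16 genes tested; Zfp36l2, which binds AU-rich elements, measured 22.82 and 26.03 against 25.9 and 37.1 (-0.33 ± 0.25), and lay at -0.083 without control replicate 2 and -0.585 without control replicate 1. Limma's adjusted p was 0.959 to 0.973 for each gene named here from these groups.

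The genes whose 4 values were most like those of Cnot1 and Tob1 were found by the root mean square distance between log2(FPKM + 1) values less their mean, among 9481 tested genes that average at least 5 FPKM. For Cnot1 they were Nup155 (distance 0.00633), a nuclear pore subunit, Plk4 (0.00727), a centriole kinase, and Cwc27 (0.0105), a spliceosome protein. Nup155 measured 13.2 and 12.2 FPKM in cKO against 15.4 and 14.96 in control. For Tob1 they included Bscl2 (0.0136), which encodes seipin, and Atp9a (0.0233), a membrane ATPase. Bscl2 measured 55.95 and 58.9 FPKM in cKO against 45.9 and 42.7 in control.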

How the data were processed

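The table deposited by the authors lists 110295 transcripts in 4 columns, in a unit its header leaves out. FPKM was inferred for the deposited values, since value times GENCODE M21 transcript length, summed and divided by 1000, gave 1015550 to 1021998 per library; RPKM cannot be told apart. The submitters' processing notes name fastp, HISAT2, HTSeq and GRCm38; how transcript values were made is not given in the sources used here. WT columns hold the control libraries. The labels' protocols name both poly(A) selection and rRNA removal, without saying which was used. FPKM were summed per symbol (162 symbols turned into dates were looked up by transcript ID). The test was run for genes reaching 1 FPKM in 2 or more libraries, on log2(FPKM + 1), which makes changes of low genes look smaller, with limma (trend, genotype only, Benjamini-Hochberg over all genes at 0.05, 2 residual degrees of freedom). Depth was recovered from values of single-transcript genes (94.9% to 96.1% whole within 0.2 reads), and recovered reads leave out 1 Cnot3 transcript absent from the annotation. Samd4b is not analysed here. Genes named were the 10 members, Mettl14, 10 listed relatives, and the 3 highest and 3 lowest of the list; Tnrc6c, Dcp1b and overlapping genes were added after their values were seen. Members and lists were chosen with earlier results of these data known. The fit was also run on simulated data whose planted changes were larger than the differences of the 10 genes. The simulated data held no shared effect of replicate number. That run does not show whether differences as small as those of the 10 genes would pass. Alternatives covered 2 scalings, a pseudocount of 0.1, filters, protein-coding transcripts only, limma-voom, a replicate block and leaving out each library. Counting error excludes all other error. Software was Biopython 1.88, pandas 2.3.3, numpy 2.4.6 and matplotlib 3.10.9 under Python 3.11.15, and limma 3.58.1 under R 4.3.3.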

Additional observations from a re-analysis of the deposited data

How the results depend on the processing

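Of the 10 genes, 6 kept their direction under every alternative run, 9 did so under the 8 alternatives that use all 4 libraries, and none of the 10 passed the test in any. The exception, Cnot11, turned to -0.004 with median-ratio scaling, -0.04 with equal library sums, -0.123 with protein-coding transcripts only and -0.025 with limma-voom; the cause was not tested. The difference in the log2 ratio of Cnot6l to Cnot6 turned to -0.072 with protein-coding transcripts only. With a library left out, which leaves 1 library in a group assumed to vary like the other, the difference lay between -0.125 and 0.274 for Cnot2, -0.697 and 0.01 for Cnot7, -0.143 and 0.337 for Cnot8, -0.106 and 0.135 for Cnot11, -0.453 and 0.177 for Cnot4, -0.126 and 0.345 for Rqcd1, -0.079 and 0.262 for Btg2, -0.104 and 0.359 for Btg3, and -0.866 and 0.018 for Xrn1. Such fits called between 7 and 52 genes and between 59 and 145 transcripts over the whole table. The labels do not pair the libraries. With the replicate number as a block, limma called 900 genes (6.51%), 2 of the decay list (Ythdf2, adjusted p = 0.00648, and Lsm7, adjusted p = 0.0319) and none of the 10, whose lowest adjusted p was 0.118 (Tob1). Differences between numbers 1 and 2 correlated between genotypes at 0.722 across 13817 genes, which are not independent replicates.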
